A study of Mus musculus with 56 samples.

Results

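RNA polymerase II phosphorylated at serine 5 (RNAPII-pS5) was mapped by ChIP-seq in bone marrow-derived macrophages (BMDMs) that received lipopolysaccharide (LPS) for 1 hr or no LPS. The comparison comprised the 4 RNAPII-pS5 peak lists of the pretreatment experiment in which the cells had no IL-4, 2 control samples (labelled ctrl_ctrl) and 2 LPS samples (ctrl_1hLPS), of 56 samples in all, and every peak of those lists was used by the gene name and the annotation class that the lists give. The cells came from wild-type C57BL/6 mice of 8 to 12 weeks and were differentiated for 6 days in L929 cell supernatant, a source of macrophage colony-stimulating factor, in every group, and the LPS dose was 100 ng/ml. The study describes the pairs as independent biological replicates. Beside them stood the same treatments mapped with antibodies against RNAPII-pS2 and against p65, and RNAPII-pS5 samples of cells that had IL-4 (20 ng/ml) for 24 hr before the LPS step. The labels do not say whether a sample came from 1 animal or from pooled marrow.

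The largest RNAPII polypeptide carries a repeated tail, and phosphorylation of the serine at the fifth position of the repeat accompanies promoter escape and the polymerase near transcription start sites, while phosphorylation of the serine at the second position marks elongating polymerase farther into the gene. LPS binds MD-2 and Toll-like receptor TLR4 on macrophages, and adaptors downstream of the receptor activate NF-kB, whose subunit p65 enters the nucleus, as well as AP-1 and interferon regulatory factors. Transcribed enhancers also carry RNAPII, so RNAPII-pS5 peaks lie at gene starts, along gene bodies and in intergenic DNA.

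Promoters of genes whose RNAPII-pS5 rose are shown first, 250 bases ending just before the annotated start, to show the NF-kB sites that they hold. The sequences and starts come from RefSeq (GRCm38.p6, the assembly of mm10), letters run 5′ to 3′ on the strand of the gene, and capitals mark matches to the NF-kB consensus and to the AP-1 motif TGANTCA on either strand.

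Cxcl1 promoter, chr5:90890995-90891244, plus strand: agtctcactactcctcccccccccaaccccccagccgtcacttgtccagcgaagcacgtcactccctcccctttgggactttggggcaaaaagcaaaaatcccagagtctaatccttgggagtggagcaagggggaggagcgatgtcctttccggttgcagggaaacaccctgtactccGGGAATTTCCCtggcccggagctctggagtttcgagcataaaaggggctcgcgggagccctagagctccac
Cxcl2 promoter, chr5:90903649-90903898, plus strand: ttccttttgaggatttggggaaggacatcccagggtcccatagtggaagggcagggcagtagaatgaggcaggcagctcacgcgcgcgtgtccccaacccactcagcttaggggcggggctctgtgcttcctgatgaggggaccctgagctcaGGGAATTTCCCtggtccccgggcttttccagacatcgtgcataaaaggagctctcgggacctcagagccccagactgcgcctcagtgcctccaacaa
Cxcl3 promoter, chr5:90785851-90786100, plus strand: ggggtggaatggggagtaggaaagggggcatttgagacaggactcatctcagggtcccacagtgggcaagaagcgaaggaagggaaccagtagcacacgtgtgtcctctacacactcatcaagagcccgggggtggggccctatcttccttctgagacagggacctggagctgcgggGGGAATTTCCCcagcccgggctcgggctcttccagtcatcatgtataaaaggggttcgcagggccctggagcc
Cxcl10 promoter, chr5:92348890-92349139, minus strand: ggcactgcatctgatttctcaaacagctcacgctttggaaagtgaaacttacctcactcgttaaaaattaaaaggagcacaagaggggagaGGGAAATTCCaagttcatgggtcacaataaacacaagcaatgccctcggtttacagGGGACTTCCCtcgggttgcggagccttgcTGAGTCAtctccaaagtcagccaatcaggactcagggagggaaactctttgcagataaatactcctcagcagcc
Ifnb1 promoter, chr4:88522795-88523044, minus strand: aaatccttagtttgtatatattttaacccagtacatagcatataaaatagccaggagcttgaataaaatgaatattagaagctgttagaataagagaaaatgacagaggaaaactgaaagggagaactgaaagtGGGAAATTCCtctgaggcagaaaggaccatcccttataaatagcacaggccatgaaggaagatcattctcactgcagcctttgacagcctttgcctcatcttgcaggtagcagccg
Gbp5 promoter, chr3:142496684-142496933, plus strand: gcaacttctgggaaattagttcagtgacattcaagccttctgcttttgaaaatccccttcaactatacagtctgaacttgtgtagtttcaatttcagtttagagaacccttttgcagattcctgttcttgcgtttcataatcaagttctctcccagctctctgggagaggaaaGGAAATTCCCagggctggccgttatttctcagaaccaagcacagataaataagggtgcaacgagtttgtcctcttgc

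In the promoters of Cxcl1, Cxcl2 and Cxcl3, which encode chemokines that attract neutrophils and lie in 1 cluster on chromosome 5, the capitals are 2 overlapping NF-kB matches, one on each strand, and those of Cxcl2 begin 97 and 96 bases before the start. Cxcl10 held 2 NF-kB matches and an AP-1 match, Ifnb1 held 1 NF-kB match 116 bases before the start, and Gbp5 held 1 on the minus strand. Over all 32851 RefSeq promoters of this length, 3.90% held an NF-kB match, against 4.82% of the promoters of genes tested here and 7.17% of those of genes called higher with LPS. The share was 4.92% for genes with a peak in the LPS samples only, 7.21% for higher and 6.38% for lower genes among those with a peak in all 4 samples, and 5.6% for higher genes by overlap with the gene against 4.64% tested, so it did not separate higher from lower genes in every set. These genes were chosen for printing after their values were seen, and a match is a description of letters, not a binding site.

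Distal RNAPII-pS5 regions that had a peak in both LPS samples and in no control sample are shown as the 300 bases around their middle (mm10), because AP-1 and NF-kB matches were more frequent in such regions than in regions lost with LPS. Of the 12 such intergenic regions with the highest scores and a p65 peak with LPS, these 3 held an AP-1 or NF-kB match and had no p65 peak in the control samples. Capitals have the same meaning as above.

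Distal region nearest Il12b, chr11:44390133-44390432, plus strand: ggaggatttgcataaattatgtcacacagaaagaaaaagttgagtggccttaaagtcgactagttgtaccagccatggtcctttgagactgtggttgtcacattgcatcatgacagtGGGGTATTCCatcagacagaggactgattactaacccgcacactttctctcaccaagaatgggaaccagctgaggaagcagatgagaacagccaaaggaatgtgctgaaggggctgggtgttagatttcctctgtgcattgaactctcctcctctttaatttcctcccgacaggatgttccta
Distal region nearest Vcl, chr14:20924127-20924426, plus strand: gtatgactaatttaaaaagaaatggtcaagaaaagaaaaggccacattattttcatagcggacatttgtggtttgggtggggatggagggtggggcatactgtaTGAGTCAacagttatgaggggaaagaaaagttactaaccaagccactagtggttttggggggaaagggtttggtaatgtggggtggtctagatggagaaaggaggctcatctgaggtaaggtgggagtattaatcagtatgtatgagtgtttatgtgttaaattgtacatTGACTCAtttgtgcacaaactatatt
Distal region nearest Il22, chr10:118178881-118179180, plus strand: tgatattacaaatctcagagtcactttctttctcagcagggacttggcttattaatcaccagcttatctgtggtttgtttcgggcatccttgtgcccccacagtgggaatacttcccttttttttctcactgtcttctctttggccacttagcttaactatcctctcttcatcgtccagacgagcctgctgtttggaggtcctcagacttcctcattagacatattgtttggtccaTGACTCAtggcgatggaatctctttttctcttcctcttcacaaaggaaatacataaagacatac

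The region nearest Il12b (chr11:44389850-44390714, at −9808 bp from the start of the gene for the IL-12 subunit p40) had RNAPII-pS5 peak scores of 32.1 and 36.1 in the LPS samples and p65 scores of 108 and 104, with no peak of either kind in any control sample. The region nearest Vcl held 2 AP-1 matches, with RNAPII-pS5 scores of 32.1 and 21.7 and p65 scores of 7.39 and 23.9 with LPS. The region nearest Il22 held 1 AP-1 match and had RNAPII-pS5 scores of 23.9 and 29.1 and p65 scores of 29.7 and 43.9. The gene nearest to an intergenic region is only its nearest annotated start.

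The values compared were peak scores. A peak score is the number that the peak caller wrote for each peak, whose values behave like −log10 of a p- or q-value, so it grows with the enrichment, the width and the read depth of a sample and is not a level of binding. The score of a gene is the sum over its promoter, exon, intron and TTS (transcription termination site) peaks, and a log2 change is the difference in mean log2 score between LPS and control after each sample was centred on its median over genes with a peak in every sample. A sample without a peak for a gene was given the lowest score in the RNAPII-pS5 lists, 1.44, so that a log2 change of such a gene depends on that value and is no bound. Differences were tested with limma and called at a Benjamini-Hochberg adjusted p of at most 0.05. The reads behind the lists were not used here, and their number is unknown.

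The control lists held 20803 and 19279 peaks and the LPS lists held 14476 and 15349, so LPS samples had fewer peaks in both replicates, while the median score stayed between 7.10 and 7.19 in all 4. Between replicates, log2 gene scores correlated with r = 0.784 in the control pair (7560 genes with a peak in both) and 0.809 in the LPS pair (5028 genes). Between a control and an LPS sample, r lay between 0.496 and 0.507 over 5050 to 5371 genes. These are correlations across genes of 1 sample pair, and genes are not independent replicates. Macrophage markers were present, with a peak at 8 of 9 listed names (the name without a peak, Adgre1, is a synonym of Emr1, which had peaks). Of markers of other cells, a peak by name was present at 2 of 7 T cell genes (Cd3d and Lck) and 2 of 5 B cell genes (Cd79b and Ms4a1). It was also present at 2 of 7 neutrophil genes (Ngp and S100a9), 1 of 5 fibroblast genes (Pdgfrb) and 3 of 4 endothelial genes (Cdh5, Pecam1 and Kdr). The other listed markers of these cells, among them Cd3e, Cd79a, Ly6g, Mpo, Col1a1, Col1a2 and Tek, had none by name, as had 0 of 5 erythroid genes.

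Genes of chemokines such as Cxcl2 and Ccl7, of cytokines such as Il6 and Ifnb1 and of the interferon response such as Gbp5 and Rsad2 rose in RNAPII-pS5 score with LPS, while a larger number of genes, among them Ctsh, Zfp36l2 and Csf1r, fell. Of 8743 genes tested, 996 were higher with LPS (11.4%) and 2123 were lower (24.3%). Of the 4240 genes with a peak in all 4 samples, 534 were higher (12.6%) and 364 were lower (8.58%), with a median log2 change of 0.04. A further 376 genes had a peak in both LPS samples and in no control sample, of which 339 were called higher, and 1998 genes had the reverse pattern, of which 1486 were called lower. The excess of lower genes therefore lay among genes whose peak was missing in the LPS lists, and it went with the smaller number of peaks in those lists. With the 14476 highest-scoring peaks of each sample, the counts were 1026 higher and 1493 lower. The split also moved with scaling, to 714 higher and 2881 lower without centring (which shifts every log2 change by 0.34), 1131 and 1048 after quantile normalization, 1326 and 906 with a 4 times higher value for a missing peak, and 455 and 311 when only genes with a peak in all 4 samples entered the fit. An exact permutation test of a single gene with 2 samples against 2 cannot go below p = 0.333, so all calls rest on the spread that limma shares across genes and over the 8 RNAPII-pS5 samples of the experiment.

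**Figure D1:**
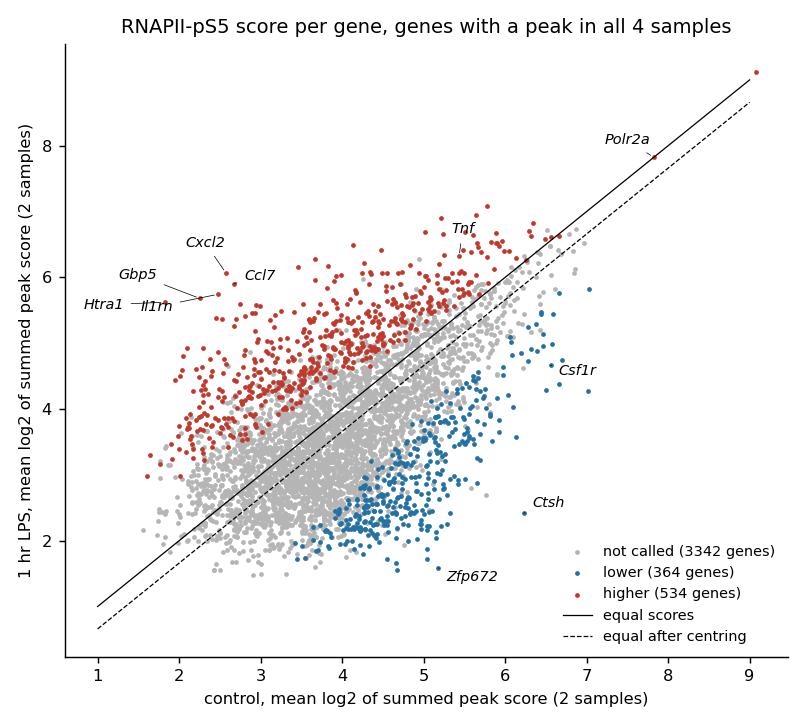
RNAPII-pS5 scores of the 4240 genes with a peak in all 4 samples, as the mean log2 of the summed peak score in the 2 control samples (x axis) and in the 2 LPS samples (y axis). Each point is a gene, red points are the 534 called higher, blue points the 364 called lower and grey points the 3342 not called; the solid line marks equal scores and the dashed line equal scores after centring, and Cxcl2, Ccl7 and Gbp5 stand at the upper left and Ctsh and Zfp672 at the lower right.

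The genes with the largest rises among those with a peak in all 4 samples included a pair of chemokines, 4 interferon-induced genes and the IL-1 receptor antagonist. Htra1, which encodes a secreted serine protease, scored 4.69 and 2.67 in the control samples and 38.5 and 63.0 in the LPS samples (log2 change 4.14, SE 0.42, adjusted p = 0.0024). Cxcl2, whose promoter is shown above, scored 8.52 and 4.16 without LPS and 66.5 and 67.7 with it (log2 change 3.83, SE 0.36, adjusted p = 0.0023), and the covered length of its peaks grew from 688 and 320 bp to 3721 and 3600 bp. In both genes the groups were far apart, and at Cxcl2 the LPS peak (chr5:90903952-90907551) ran from close to the start of the gene (chr5:90903899-90905938) past its end.

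Gbp5, a guanylate-binding GTPase induced by interferons, scored 4.41 and 5.16 in the control samples and 49.3 and 53.4 in the LPS samples (log2 change 3.77, SE 0.50). Il1rn, the secreted antagonist of the IL-1 receptor, went from 4.69 and 6.60 to 56.0 and 51.2 (log2 change 3.61, SE 0.36). Ccl7, a chemokine for monocytes, went from 5.94 and 6.89 to 54.4 and 66.1 (log2 change 3.57, SE 0.23). No control sample of these 3 genes came near an LPS sample, and adjusted p lay between 0.0018 and 0.0035. Their highest peaks lay in an intron, at the TTS and in an exon, and peaks of the promoter class alone gave log2 changes of −1.21 for Gbp5, −0.56 for Il1rn and −1.12 for Ccl7, of which that of Ccl7 passed the test (adjusted p = 0.0282). The highest LPS peaks of Gbp5 (chr3:142496887-142499406) and Ccl7 (chr11:82045663-82048958) covered the starts of these genes, at 142496934 and 82045712. They are listed as intron and exon, so the promoter class leaves them out and its values do not show a fall at these starts.

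Oas3, an oligoadenylate synthetase of the antiviral response, scored 4.95 and 3.72 in the control samples and 26.1 and 35.6 in the LPS samples. Ifi47, an interferon-induced GTPase, scored 5.78 and 7.31 without LPS and 43.2 and 39.3 with it. Gm4951, another gene of the interferon-inducible GTPase family, scored 3.99 and 8.36 without LPS and 36.0 and 47.4 with it. All 3 rose, with log2 changes of 3.17, 3.0 and 3.18, and in each of them both LPS samples stood above both control samples. Aig1 (9.01 and 4.98 to 50.1 and 46.7) and Lrrfip2 (4.71 and 3.65 to 22.95 and 34) rose by 3.19 and 3.09. The 2 other names came from intronic peaks inside neighbouring genes: the peaks named Prss52 (5.91 and 5.07 to 45.3 and 38.4) lay in Msra, a methionine sulfoxide reductase, and those named Car4 (11 and 11 to 68.8 and 73.4) lay in Usp32, a deubiquitinating enzyme. The lists name a peak by the nearest start, and of 8152 tested names found in RefSeq the highest-scoring peak lay in the body of the named gene for 89.6%.

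Of the gene names with peaks only in the LPS samples, the 8 with the highest scores were Mir155, Tmc3, Cep55, Gm1604b, Phlda1, Ifnb1, Tcte2 and Mir3095. Mir155 led, with scores of 55.5 and 64.6 in the LPS samples, at a peak that lay in Mrpl39, a mitochondrial ribosomal protein gene. Ifnb1, the gene of interferon beta, scored 31.3 and 29.5, with a single peak over the whole gene (chr4:88522025-88522794), at chr4:88520327-88522800 in the first LPS sample, and no peak in either control sample. Phlda1, a pleckstrin homology-like protein induced by many stimuli, scored 25.4 and 35.5, with its highest peak in the TTS class. Cep55, named for a protein of the midbody, scored 32.7 and 31.9 at a peak at −732 bp from its start. The remaining names scored between 21.2 and 44.3 with LPS, and those of Tcte2 and Mir3095 lay in introns of Afdn and Lpar1. The highest peak named Gm1604b lay in Gm1604a. By overlap with the gene Tmc3 was not LPS-only, with 8.45 and 11.4 in the control samples and 39.4 and 44.3 with LPS (log2 change 2.45). Tcte2 by overlap had a peak of 10.3 in a single control sample and none with LPS. All 8 were called higher, and the size of a change from no peak depends on the value given to a missing peak.

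**Figure D2:**
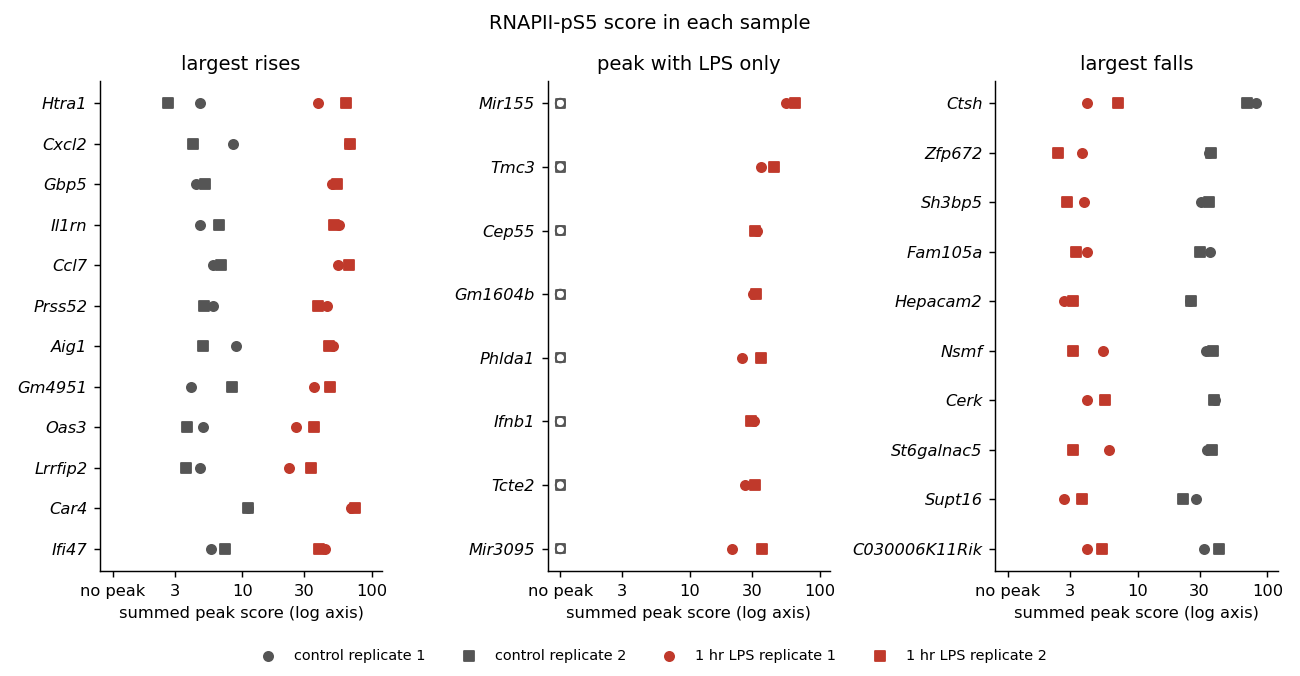
Summed RNAPII-pS5 peak score (log axis) in each of the 4 samples for the 12 genes with the largest rise, the 8 highest-scoring gene names with a peak in the LPS samples only and the 10 genes with the largest fall. Grey symbols are control samples, red symbols LPS samples, circles replicate 1 and squares replicate 2, and open symbols mark samples with no peak. In every row the red and grey symbols stand apart.

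Several microRNA genes were among the calls, which score RNAPII-pS5 at or near their loci and not the mature microRNA. Their mature sequences (RefSeq, GRCm38.p6) are shown because miR-221 and miR-222 share their seed, with bases 2 to 8 in capitals. Apart from Mir155, these microRNAs were picked after their values were seen.

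mmu-miR-155-5p, chr16:84714143-84714165, plus strand: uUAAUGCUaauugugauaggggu
mmu-miR-221-3p, chrX:19146307-19146329, minus strand: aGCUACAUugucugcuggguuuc
mmu-miR-222-3p, chrX:19146901-19146923, minus strand: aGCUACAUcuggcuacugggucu
mmu-miR-21a-5p, chr11:86584120-86584141, minus strand: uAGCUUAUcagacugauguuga

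At Mir155, whose product is a known regulator of the inflammatory response of macrophages, the scored LPS peak lay at chr16:84717076-84719084, 3940 bp from its start. RNAPII-pS2 had scores of 57.7 and 44.8 under the same name with LPS and no peak without. Mir21 had scores of 72.0 and 50.9 in the control samples and 84.8 and 92.6 in the LPS samples, a small rise (log2 change 0.89, SE 0.15, adjusted p = 0.0056) on a high control level. An intergenic region nearest Mir221 (chrX:19142217-19145102) went from 5.81 and 4.18 to 32.4 and 37.6, a log2 change of 3.0, with no p65 peak in any sample. Mir142, of a locus active in blood cells, rose from 21.4 and 15.5 to 34 and 27. In the other direction Mir223, a myeloid microRNA gene, had scores of 13.3 and 13.2 in the control samples and no peak with LPS, and Mir511, in the gene of the mannose receptor, had 11.2 and 13.2 and no peak. Both were called lower, with adjusted p of 0.0052 and 0.0048.

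The largest falls among genes with a peak in all 4 samples were led by Ctsh, the gene of the lysosomal protease cathepsin H. Ctsh scored 81.3 and 69.5 in the control samples and 4.04 and 7.08 in the LPS samples (log2 change −3.47, SE 0.32, adjusted p = 0.0023), and the length of its peaks went from 4156 and 3703 bp to 626 and 779 bp. Some of its peaks lay upstream of the gene, and by overlap with the gene (the assignment described below for Il1b) Ctsh scored 53.6 and 34.2 and then 4.04 and 7.08, a log2 change of −2.64, while its RNAPII-pS2 scores were 99.4 and 116 and then 109 and 137. Zfp672, a zinc finger protein gene, went from 35.7 and 36.8 to 3.74 and 2.41 at its promoter (log2 change −3.25, SE 0.42). Both genes lay far below their control samples in both LPS samples.

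The other falls were in Sh3bp5 (30.7 and 35.5 to 3.86 and 2.84), Hepacam2 (25.3 and 25.7 to 2.70 and 3.18), Nsmf (33.6 and 37.8 to 5.37 and 3.18) and St6galnac5, a sialyltransferase gene (33.9 and 37.1 to 6.06 and 3.18). Supt16, which encodes a subunit of the histone chaperone FACT, went from 28.3 and 22.5 to 2.69 and 3.70 at its promoter, and C030006K11Rik from 32.6 and 42.2 to 4.08 and 5.33. Their log2 changes lay between −2.98 and −2.65. The peaks named Fam105a (36.4 and 30 to 4.03 and 3.34) lay in Trio and those named Cerk (39.1 and 38.7 to 4.08 and 5.56) in Gramd4, and by overlap with its own gene Cerk was not called. Among genes with no peak in either LPS sample the highest control scores belonged to Cpeb1 (57.1 and 58.8), which encodes a protein that controls polyadenylation in the cytoplasm, to peaks named Mrpl44 (63.6 and 49.4) that lay in Serpine2, and to Creg1 (51.7 and 58.0), a lysosomal glycoprotein gene. Peaks named Mir701 (53.3 and 53.8) lay in Ttc28, and Tbc1d2b, Lyl1 and Lypd3 scored between 33.9 and 42.8 without LPS.

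Peaks of the higher genes covered more bases with LPS. The calls themselves favour this, since they rest on the scores of the same peaks and a score grows with width. Among genes with a peak in all 4 samples that were called higher, the median covered length was 917 and 861 bp in the control samples and 1720 and 1782 bp with LPS, and 417 of 534 were covered over more bases in both LPS samples than in both control samples. For genes called lower the medians went from 1434 and 1373 bp to 555 and 593 bp, and 325 of 364 were shorter. Of the 3342 genes not called, 697 were longer and 1263 were shorter. Peaks of 2 kb or wider numbered 112 and 104 in the control lists and 278 and 292 in the LPS lists, although the LPS lists were shorter. The widest control peak covered Fth1, the ferritin heavy chain gene (4478 and 4524 bp). The widest LPS peaks covered the Il1b gene in the first sample (7478 bp, listed under the non-coding neighbour Gm14047) and Mir21 in the second (5040 bp). Nfkbia, Socs3, Dusp1, Ccl4, Ccl5 and Tnf were among the 10 widest in both LPS samples and in neither control sample.

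Chemokine genes changed most as a group, beside 11.4% higher and 24.3% lower of all genes tested. Of 15 tested, 11 were higher (Cxcl1, Cxcl2, Cxcl3, Cxcl10, Cxcl11, Ccl2, Ccl3, Ccl4, Ccl5, Ccl7 and Ccrl2), 1 was lower (Ccl24), and the median log2 change was 2.70 against −0.53 for all genes tested. Cxcl1 had no peak in the control samples and scores of 21.1 and 19.4 with LPS, and Cxcl3 likewise had no peak and then 23.1 and 21.2. Ccl4, a chemokine for T cells and monocytes, rose from 14.0 and 11.5 to 77.9 and 77.7 (log2 change 2.96, SE 0.36, adjusted p = 0.0029). Its neighbour Ccl3 rose from 39.8 and 26.2 to 103 and 105 (log2 change 2.02). In all of these the LPS samples stood above the control samples.

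Cxcl10, a chemokine for activated T cells, rose from 19.3 and 16.1 to 96.4 and 84.3 (log2 change 2.70). Ccl2, the main monocyte chemoattractant, rose from 15.7 and 14.1 to 60.4 and 63.0, and Ccl5 had no control peak and LPS scores of 19.4 and 18.4. Ccl24, an eosinophil chemoattractant, fell from 28.4 and 31.3 to 9.79 and 6.24 (log2 change −1.59, adjusted p = 0.035), a call lost after quantile normalization, with intergenic peaks included, and without any 1 of the 4 samples. Ccl17, Ccl22, Cxcl5 and Cxcl9 had no peak in any of the 4 samples.

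Of 18 cytokine genes tested, 10 were higher and none was lower, beside 11.4% and 24.3% of all genes. Tnf scored 47.3 and 39.6 in the control samples and 81.2 and 78.3 in the LPS samples (log2 change 1.22, SE 0.14, adjusted p = 0.0026), so it was already covered before LPS. Il6, in contrast, had a peak of 5.95 in a single control sample and 41.2 and 34.9 with LPS (log2 change 4.04, adjusted p = 0.0047). Csf1, the gene of the growth factor on which these cells depend, rose from 4.80 and 5.16 to 23.0 and 16.9, and Il15 from 31.9 and 41.8 to 68.7 and 79.5. The LPS values exceeded the control values in all 4.

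Il1b itself was not tested under its own name, since a single peak of 4.85 carried it. The peak over the gene is listed as Gm14047 and scored 6.89 and 7.10 in the control samples and 36.5 and 49.5 with LPS. When peaks were instead assigned to every RefSeq gene they overlap within 1 kb, a choice made after the values were seen, Il1b was higher by 2.96 on the log2 scale (adjusted p = 0.00985), and 11 of 18 cytokine genes were higher. By this assignment 1582 of 12400 genes were higher (12.8%) and 3072 lower (24.8%). Tnfsf9, the ligand of the co-stimulatory receptor 4-1BB, also counted as higher by overlap, from 12.3 and 5 to 58.2 and 67.6. Il10, an anti-inflammatory cytokine, had 14.7 and 17.6 without LPS and 27.9 and 17.6 with it, and was not called, and Csf2, Il12a and Ltb had no peak.

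Interferon and interferon-stimulated genes were higher in 12 of 25 tested and lower in 1, beside 11.4% and 24.3% of all genes, with a median log2 change of 1.44. Rsad2, the antiviral protein viperin, rose from 14.1 and 11.3 to 67.8 and 57.2 (log2 change 2.64, SE 0.26, adjusted p = 0.0023). Isg15, a ubiquitin-like modifier, rose from 16.8 and 13.1 to 49.7 and 51.3 (log2 change 2.11), and Gbp2 from 13.8 and 4.30 to 47.3 and 48.2 (log2 change 2.97). Ifit1, Ifit2, Isg20, Cmpk2, Oasl1, Usp18 and Gbp3 rose as well. Of the factors that drive this response, Irf7, Irf9 and Stat2 were not called, with Irf7 at 52 and 65 and then 48.6 and 63.5, Irf9 at 33.7 and 41.8 and then 34.5 and 47.0, and Stat2 at 9.60 and 27.2 and then 26.2 and 13.7. Irf1 was called lower by name (60.3 and 48.5 to 19.7 and 20.0, log2 change −1.11, adjusted p = 0.0079), but by overlap with the gene it had 48.1 and 39.2 without LPS and 43.1 and 47.5 with it (log2 change 0.42, adjusted p = 0.077), so this call rests on how peaks near the gene were named.

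**Figure D3:**
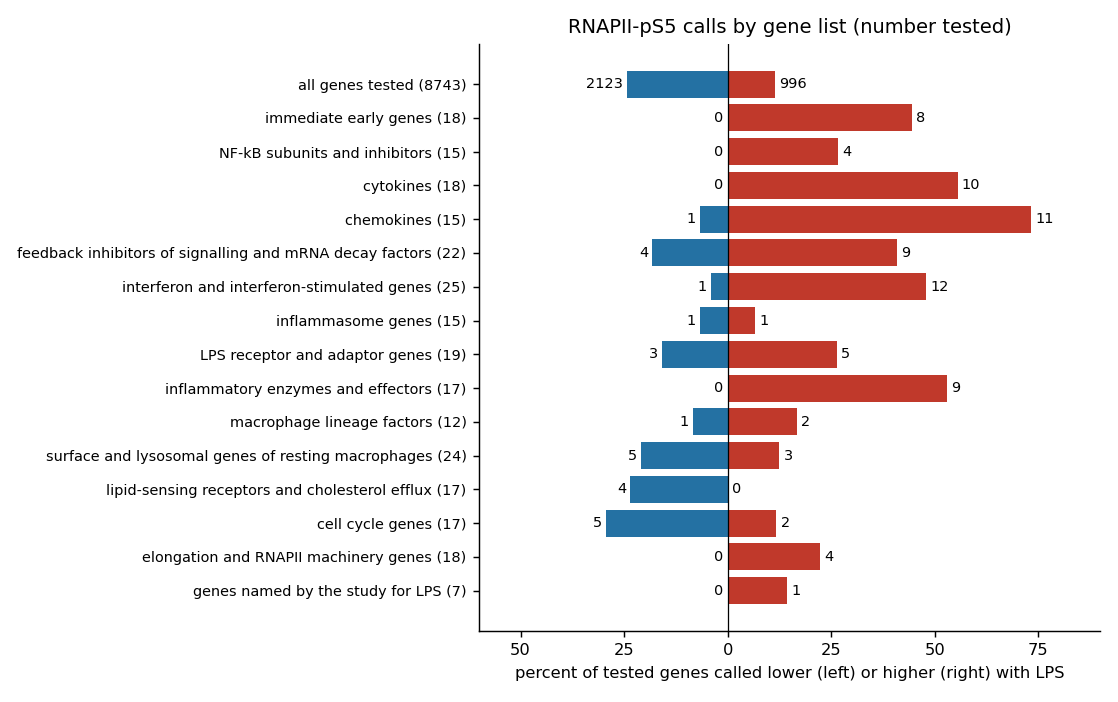
Percent of the tested genes in each list that were called higher (red, to the right) or lower (blue, to the left) with LPS, with the number of genes at each bar end and the number tested in brackets. The top bar is all 8743 tested genes, with 996 higher and 2123 lower; chemokines had 11 higher and 1 lower, and the lipid-sensing list had 0 higher and 4 lower.

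Immediate early genes, transcription factor genes that respond to stimuli without new protein synthesis, were higher in 8 of 18 tested and lower in none, beside 11.4% and 24.3% of all genes. Fosl2 rose from 12.2 and 9.35 to 48.4 and 40.8 (log2 change 2.40, SE 0.39, adjusted p = 0.0054). Egr1 had no peak in the control samples and 11.2 and 12.6 with LPS. Junb, an AP-1 subunit gene, rose from 31.3 and 41.2 to 67.4 and 63.3, and Fos from 28.1 and 17.0 to 39.7 and 39.6 (log2 change 1.20, adjusted p = 0.016), a call lost without centring and without 3 of the 4 samples taken out in turn (each LPS sample and the second control sample). Atf3, Nr4a2, Egr3 and Ier5 rose by 1.30, 1.46, 0.70 and 0.53. Jun (22.8 and 24.4, then 20.7 and 30.7) and Btg2 (49.3 and 47.3, then 45.3 and 54.3) overlapped between the groups. Without centring 3 of 18 were higher and 1 was lower, so for this list the count depended on scaling.

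Among NF-kB subunits and inhibitors, 4 of 15 were higher (Rel, Nfkb2, Nfkbiz and Tnip3) and none was lower, beside 11.4% and 24.3% of all genes. Tnip3, an inhibitor of NF-kB activation, rose from 11.7 and 6.96 to 40.4 and 45.7 (log2 change 2.59, adjusted p = 0.0065). Nfkb2 rose from 40.0 and 26.8 to 65.3 and 64.2, Rel from 12.1 and 18.2 to 33.0 and 27.6, and Nfkbiz from 18.8 and 25.8 to 44.0 and 42.7. Nfkbia, the inhibitor that NF-kB itself induces, scored 75.2 in both control samples and 84.8 and 75 with LPS (log2 change 0.43, adjusted p = 0.074). The covered length under its name went from 3560 and 3680 bp to 9089 and 8960 bp, and its RNAPII-pS2 score by name rose from 75.2 and 72.0 to 129 and 129. By overlap with Nfkbia itself RNAPII-pS2 had 45.2 and 37.8 and then 40.8 and 42.4 and was not called. Rela, which encodes p65, had 49.8 and 48.4 and then 47.5 and 65.7, and Tnfaip3 had 9.77 and 8.85 and then 10.4 and 17.7. By overlap with the gene, 7 of 15 were higher, beside 12.8% of all genes, with Rela, Relb, Nfkb1 and Nfkbie added and Nfkb2 not called.

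Of feedback inhibitors of signalling and mRNA decay factors, 9 of 22 were higher, beside 11.4% of all genes, and 4 were lower, the latter a share no larger than the 24.3% of all genes. Rcan1, a regulator of calcineurin, rose from 28.4 and 17.3 to 81.3 and 90.6 (log2 change 2.29, SE 0.22, adjusted p = 0.0023). Socs3, an inhibitor of cytokine signalling, rose from 11.7 and 20.1 to 49.0 and 44.2 (log2 change 1.94), and Dusp1, a phosphatase for MAP kinases, from 23.6 and 18.2 to 40.7 and 40.4 (log2 change 1.31). The mRNA decay factors of the TTP family split: Zfp36 rose from 47.3 and 46.3 to 55.9 and 64.2 (log2 change 0.70, adjusted p = 0.0098), Zfp36l1 fell from 92.1 and 98.9 to 36.4 and 27.5 (log2 change −1.25, adjusted p = 0.0048), and Zfp36l2 fell from 57.0 and 44.9 to 6.42 and 8.40 (log2 change −2.44, adjusted p = 0.0023). Sik1, a kinase of the salt-inducible family, had 9.52 and 14.1 in the control samples and no peak with LPS. Dusp2 was lower by name (13.6 and 13.3 to no peak) and higher by overlap with the gene (18.6 and 13.3 to 70.7 and 68.8, log2 change 2.51, adjusted p = 0.0015), because the wide LPS peak over it is listed under its neighbour Astl.

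Inflammatory enzymes and effectors were higher in 9 of 17 tested and lower in none, beside 11.4% and 24.3% of all genes. Ptgs2, the inducible cyclooxygenase, had no control peak and 17.8 and 16.1 with LPS. Irg1 (also listed as Acod1), which makes itaconate, had no control peak and 16.9 and 17.2. Plaur, the urokinase receptor, rose from 5.30 and 12.0 to 46.2 and 48.6 (log2 change 2.91, adjusted p = 0.0035). Cd83 and F3, the gene of tissue factor, had peaks only in the LPS samples, and Sod2, Cd69, Cd40 and Cd86 rose. By overlap with the gene 15 of 23 were higher, beside 12.8% of all genes, among them Nos2, the inducible nitric oxide synthase (no peak, then 5.11 and 5.06), Saa3 (no peak, then 26.6 and 30.6) and Lcn2 (no peak, then 16.1 and 18.7).

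For the LPS receptor and its adaptors, 5 of 19 were higher and 3 were lower, beside 11.4% and 24.3% of all genes. Myd88, the adaptor shared by most Toll-like receptors, rose from 22.5 and 19.8 to 43.6 and 40.4 (log2 change 1.33, adjusted p = 0.0070), and Ly96, which encodes MD-2, from 26.9 and 19.1 to 36.4 and 32.8 (log2 change 0.95). Tlr4 had 31.4 and 20.9 without LPS and 16.0 and 9.58 with it, and was not called (adjusted p = 0.16). Ticam2 (14.1 and 17.8 to no peak), Irak4 (29.7 and 22.8 to 7.16 and 9.06) and Tab1 (15.6 and 15.7, then no peak and 3.18) fell. Inflammasome genes were higher in 1 of 15 (Casp4, the sensor of cytosolic LPS, from 9.99 and 8.41 to 26.7 and 28.0) and lower in 1 (Txnip, a thioredoxin inhibitor, from 53.9 and 73.0 to 21.3 and 28.8), beside the same 11.4% and 24.3%. Nlrp3 had 20.7 and 30.1 and then 39.9 and 31.5 (adjusted p = 0.13).

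Of 9 genes that the study names, 7 were tested and Fos alone was called. In its text the study names Fos and Abca1 for repression by IL-4, and the other genes, or enhancers near them, in its LPS experiments. The study chose these genes on these cells, so they are not independent evidence of a direction. Cd14, the LPS co-receptor, had 28.6 and 18.6 without LPS and 35.1 and 30.3 with it (log2 change 0.84, adjusted p = 0.050, just outside the threshold). By overlap with the gene, 3 of 9 were higher (Cd14, Il1b and Fos), beside 12.8% of all genes. Tlr2, Clec4d, Fcgr1 and Abca1 were not called, and Abca1, the cholesterol exporter, had 49.6 and 26.8 and then 19.6 and 17.9.

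Lineage factors and surface and lysosomal genes of resting macrophages had median log2 changes of 0.06 and −0.17. Of 12 lineage factors 2 were higher, Ets2 (8.88 and 3.47 to 35.2 and 24.4) and Cebpa (3.01 and 7.92 to 9.31 and 17.8), and 1 was lower, Fli1 (62.5 and 59.3 to 10 and 20.2, log2 change −1.76). Of all genes 11.4% were higher and 24.3% lower. With the highest score in place of the sum, Fli1 had a log2 change of 0.094 and was not called. Of 24 surface and lysosomal genes, 3 were higher and 5 were lower. Csf1r, the receptor of the growth factor that maintains these cells, fell from 91.8 and 96.8 to 18.6 and 34.6 (log2 change −1.55, SE 0.28, adjusted p = 0.0071). Lyz2, lysozyme, fell from 52.2 and 51.2 to 5.80 and 15.2 (log2 change −2.12), Mertk, a receptor for dying cells, from 42.2 and 44.6 to 11.9 and 10.2 (log2 change −1.63), and Ctsd, cathepsin D, from 18.9 and 20.1 to no peak. Cd36 (58.2 and 61.7 to 97.4 and 87.1), Msr1 (25.9 and 23.9 to 37.8 and 43.1) and Cx3cr1 (40.3 and 34.6 to 52.6 and 57.8) rose, the former pair being scavenger receptors. These falls were within a list whose lower share, 5 of 24, stood beside 24.3% of all genes.

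Lipid-sensing receptors and cholesterol efflux genes were lower in 4 of 17 (Rxrb, Ppard, Apoe and Lpl) and higher in none, beside 24.3% lower of all genes. Apoe, the apolipoprotein secreted by macrophages, had 23.3 and 31.0 without LPS, and no peak and 9.26 with it (adjusted p = 0.048). With an equal number of peaks per sample none of 15 was called in this list, and 0 were lower among the 10 members with a peak in all 4 samples. Cell cycle genes were lower in 5 of 17 (Ccne1, E2f3, Mcm2, Mcm5 and Mki67) and higher in 2, shares close to the 24.3% and 11.4% of all genes. Of the 8 with a peak in all 4 samples 1 was lower, with a median log2 change of 0.16, and Mki67 was not called by overlap with the gene (11.65 and 18.05, then 6.27 and 9.13). Cdkn1a, the cyclin-dependent kinase inhibitor p21, rose from 65.8 and 53.5 to 89.2 and 95 (log2 change 0.98, adjusted p = 0.0033). Cdk4, the other, had peaks with LPS only by name (10.8 and 8.93) and was not called by overlap. Of 18 elongation and RNAPII machinery genes, 4 were higher (Polr2a, Hexim1, Larp7 and Aff1), beside 11.4% of all genes, and without centring 1 was. Hexim1, an inhibitor of the elongation kinase P-TEFb, rose from 47 and 50.6 to 105 and 94.7 (log2 change 1.37, adjusted p = 0.00266). For Polr2a, the gene of the RNAPII polypeptide itself, the scores were 235 and 218 without LPS and 229 and 224 with it, so that its called change of 0.34 equals the centring shift, and without centring it was 9.07e-05 and not called.

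Of the markers of other cells, Ngp and Cd79b were called by name. Ngp, a granule protein gene of neutrophils, had no control peak and 10.8 and 11.4 with LPS (higher), S100a9 had 5.18 and 10.6 and then 12.1 and 9.27, and S100a8, by overlap, had a peak of 7.04 in a single control sample and 15.1 and 16.9 with LPS, while Ly6g, Camp, Elane and Mpo had no peak. Cd79b, of the B cell receptor, was lower (10.3 and 6.27, then no peak). The part of other cells in the gene results was not tested, and fewer polymerases per cell and fewer cells with polymerase at a gene cannot be told apart in these bulk samples.

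Counted by region, lost regions outnumbered gained ones most at promoters, and most gained regions lay in introns and intergenic DNA. Merging the peaks of the 8 RNAPII-pS5 samples gave 28513 regions that any of the 4 samples covered, of which 6942 had a peak in all 4, 2502 in both LPS samples and no control sample, and 5405 in both control samples and no LPS sample. At promoters 1220 regions were control-only and 113 LPS-only, a ratio of 10.8, while in introns the counts were 1818 and 1046 (1.74) and in intergenic DNA 1741 and 1215 (1.43). In exons the ratio was 5.56 and at TTS 4.32. Of LPS-only regions 9.11% lay within 1 kb of a start, against 33.9% of control-only and 33.7% of shared regions, and the median distances were 19274, 7004 and 6723 bp. Each region takes the class and distance of its highest-scoring peak. The LPS peak over the whole Ifnb1 gene, start included, is of the TTS class. Gained regions over starts can therefore be missing from the promoter counts, and how many are was not tested. With equal numbers of peaks per sample, 3236 regions were LPS-only and 3318 control-only. Equal lists draw these counts together by construction, so this setting cannot show why lost regions outnumbered gained ones.

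Tested by score, 3592 of 19529 regions were higher (18.4%) and 5970 lower (30.6%). At promoters 6.81% of 3598 tested regions were higher and 40.4% were lower, in introns 21.0% and 27.6%, and in intergenic DNA 22.9% and 27.1%. The same limit of the promoter class holds for these shares. Among regions with a peak in all 4 samples, 869 of 6942 were higher (12.5%) and 731 lower (10.5%). Of these, 8.06% were higher and 18.6% lower at promoters, 14.0% and 7.42% in introns, and 13.0% and 8.48% in intergenic DNA. The share of regions higher among those called was 37.6% by the main scaling, 50.8% after quantile normalization, 50.3% with equal numbers of peaks and 66.3% with a higher value for a missing peak.

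**Figure D4:**
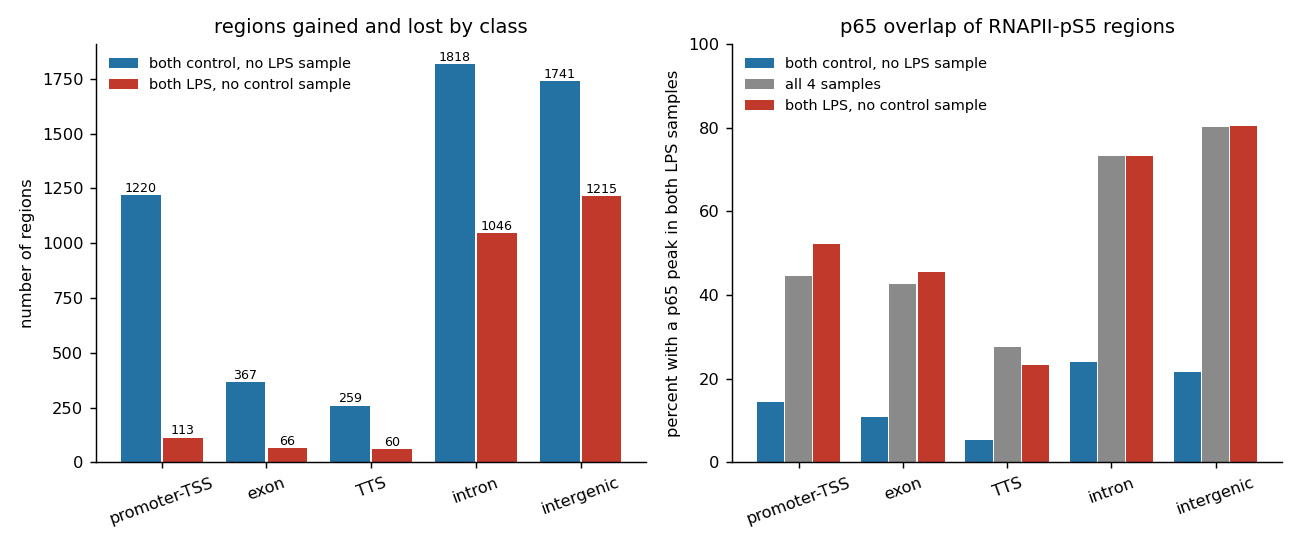
Left, number of RNAPII-pS5 regions with a peak in both control samples and no LPS sample (blue) and in both LPS samples and no control sample (red), by annotation class. Right, percent of those regions, and of regions with a peak in all 4 samples (grey), that a p65 peak overlapped in both LPS samples. Promoters had 1220 control-only against 113 LPS-only regions, and red and grey bars stand above blue bars in every class.

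Of intergenic regions with a peak in all 4 samples, the largest rise was nearest Nsd1 (chr13:55189171-55191553, scores of 7.09 and 4.29 without LPS and 82.2 and 88.6 with it, log2 change 4.13, SE 0.26, adjusted p = 5.0e-04). Regions nearest Dusp23, Fat4 and Hivep2 were also among the largest rises, with log2 changes of 3.31, 3.18 and 3.14, and the region nearest Mir221 described above. At the Dusp23 region (chr1:172643370-172644443) p65 went from 8.89 and 12.7 to 69.4 and 77.9, whereas at the Nsd1 region it scored 6.13 and 5.24 with LPS and had no control peak. The largest falls were nearest Rbpj (chr5:53539656-53540697, 23.1 and 26.5 to 3.88 and 2.26), Susd3, Abca1 and Tubgcp5. The region at −27490 bp from the start of Abca1 (chr4:53186725-53188370) fell from 32.8 and 40.5 to 4.83 and 5.67 (log2 change −2.62), and p65 scored 26.7 and 34.1 there without LPS and 12.5 and 14.6 with it. Regions made of the TTAGGG repeat, of which 45 had a peak in all 4 samples, were higher in 20 and lower in 0 with a median log2 change of 0.56, and such repeats collect reads from many places.

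The p65 lists, from separate immunoprecipitations of the same treatments, held 9706 and 9556 peaks in the control samples and 26305 and 26820 with LPS. A p65 peak in both LPS samples overlapped 73.8% of LPS-only RNAPII-pS5 regions (95% Clopper-Pearson interval 72.1 to 75.5, for counting error only), 66.3% of shared regions (65.1 to 67.4) and 19.3% of control-only regions (18.3 to 20.4). Within classes the LPS-only and shared shares were close, with 73.2% and 73.1% in introns and 80.3% and 80.1% in intergenic DNA. They were 52.2% and 44.5% at promoters, 45.5% and 42.7% in exons, and 23.3% and 27.6% at TTS. Promoters, where p65 was less frequent than in introns, made up 4.52% of LPS-only and 20.0% of shared regions. In control cells p65 overlapped 13.2% of the LPS-only regions and 12.6% of the control-only regions. Split by p65, 26.7% of the 9891 tested regions with p65 were higher and 14.9% lower, while 9.88% of the 9638 without were higher and 46.6% lower. This difference between tested regions with and without p65 was present in every class, for instance in intergenic DNA (29.9% higher with p65 and 11.5% without) and at promoters (12.2% and 4.42%). Shared regions without p65 had a median log2 change of −0.15 and those with it 0.12, so among regions present in all 4 samples the difference was small.

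Motif letters differed between gained and lost distal regions. Within the 300 bases at the middle of intronic and intergenic regions, an AP-1 match was present in 36.9% of the 2261 LPS-only regions, in 8.32% of the 3559 control-only regions, in 16.0% of the 4869 shared regions and in 17.8% of all 21066 such regions. The NF-kB consensus was present in 8.18%, 2.92%, 5.2% and 5.03%. The interferon-response motif (ISRE) was present in 8.31%, 4.33%, 7.46% and 6.72%. The PU.1 motif GAGGAAGT, of the factor that defines myeloid enhancers, was less frequent in LPS-only regions, with 6.41%, 11.4%, 9.84% and 9.67%. The GC box GGGCGG was also least frequent there, with 5.31%, 9.02%, 9.67% and 8.14%, and most frequent in shared regions. These are counts of letters on both strands, AP-1 matches being their own reverse complement, and matches of different motifs can overlap.

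**Figure D5:**
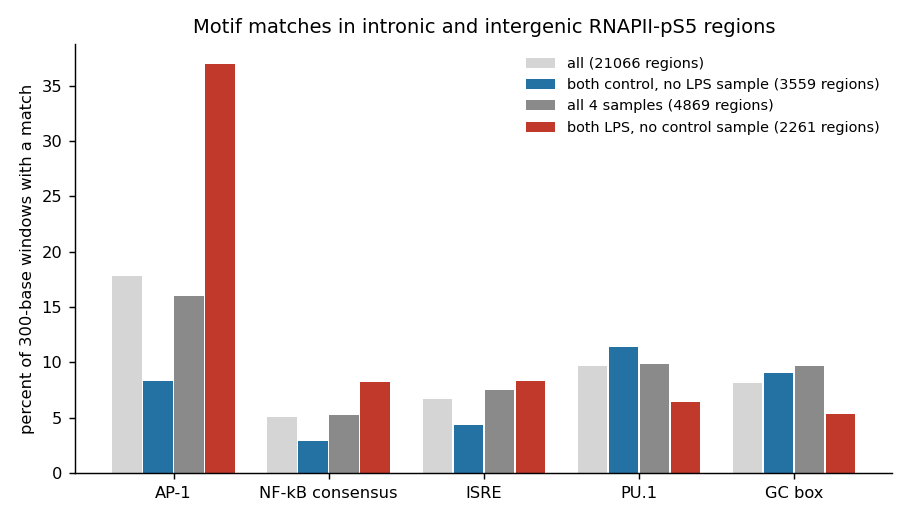
Percent of 300-base windows at the middle of intronic and intergenic RNAPII-pS5 regions that hold a match to each motif, for all regions (light grey), control-only (blue), shared (dark grey) and LPS-only regions (red). AP-1 matches were in 36.9% of LPS-only and 8.32% of control-only windows, and the PU.1 motif was more frequent in the control-only windows.

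At promoters the shares were closer together. AP-1 was present in 7.84% of promoters of genes called higher and 3.65% of those of genes called lower, against 4.86% of all tested. By overlap with the gene these shares were 6.7%, 4.31% and 4.94%. Among genes with a peak in all 4 samples, by overlap, they were 5.43% for higher and 6.01% for lower genes. By name, the ISRE was present in 5.96% of promoters of higher and 2.15% of those of lower genes, against 2.95% of all tested, and the TATA box (TATAAA) in 10.5% and 6.29%, against 7.01%. The NF-kB consensus was present in 7.17% and 4.25%.

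RNAPII-pS2, mapped with another antibody in the same treatments, moved in the same direction at many of these genes. Of 10303 genes tested for RNAPII-pS2, 1513 were higher (14.7%) and 1796 lower (17.4%). Of the genes called higher for RNAPII-pS5, 54.1% were higher for RNAPII-pS2 and 1.24% lower, and of those called lower 43.4% were lower and 1.10% higher. Among the largest rises, Gbp5 and Oas3 were not called for RNAPII-pS2 by name, though Gbp5 was higher by overlap (log2 change 1.63). Among the largest falls, Ctsh, Sh3bp5, Fam105a, Hepacam2 and Cerk were not called, nor were the control-only names Mrpl44 and Tbc1d2b. The other genes of these sets were called in the direction of RNAPII-pS5. Across the 8358 genes tested with both antibodies, the log2 changes correlated with r = 0.693, and with r = 0.606 over the 3961 genes with a peak in all samples, genes that share the annotation and the rule for missing peaks. Fosl2 (8.02 and 12.3 to 89.3 and 96.3) and Trib1, a regulator of C/EBP factors (88.9 and 78.0 to 298 and 258), were higher in both marks by name. By overlap with the gene Fosl2 was higher in both, with a smaller RNAPII-pS2 change of 1.40 on the log2 scale. Trib1, whose highest peak by name lay at −96052 bp, was then higher for RNAPII-pS2 (0.82) and not called for RNAPII-pS5 (24.7 and 26.5, then 33.4 and 29.2, adjusted p = 0.084). Cd83 differed, with RNAPII-pS2 scores of 31.2 and 32.5 that fell to 18.6 and 16.4 while its RNAPII-pS5 peaks appeared with LPS only. Il15 fell from 122 and 113 to 103 and 91.2 for RNAPII-pS2 (adjusted p = 0.035) and rose for RNAPII-pS5, but by overlap with the gene the RNAPII-pS2 call was lost (adjusted p = 0.0555). Fli1 had 105 and 91.2 and then 92.6 and 87.0, not called, beside its fall in summed RNAPII-pS5 score.

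In cells that had IL-4 for 24 hr, the same LPS step gave 595 higher (6.81%) and 1170 lower genes (13.4%). The 8743 genes tested for it were again chosen by their peaks in the samples without IL-4. Genes with peaks only after IL-4 were left out, so these shares cannot be compared with those of cells without IL-4. The difference between the LPS responses with and without IL-4 was tested directly, and passed at 180 of 8743 genes, with 94 in which the change was more positive after IL-4 (1.08%) and 86 in which it was more negative (0.984%). Without centring the split was 324 and 90, and over genes with a peak in all 8 samples it was 37 and 97. None passed with the replicate number as a block or with a higher value for a missing peak, and between 0 and 6 did without any single sample, so few genes can be named as differing. Cep55, LPS-only here, had 25.7 and 20.9 after IL-4 alone and 48.6 and 54.5 after IL-4 and LPS. The peaks named Mrpl44, absent with LPS here, had 9.55 and 13.4 after IL-4 and 9.23 and 11.2 after IL-4 and LPS.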

How the data were processed

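RNAPII-pS5, RNAPII-pS2 and p65 ChIP-seq was performed by the authors on double cross-linked BMDMs (DSG and formaldehyde). The authors aligned reads to mm10 with BWA (0.7.10, per the submitters' processing notes, which also list SAMtools 0.1.19, HOMER 4.2 and MACS2 2.0.10), called peaks per sample with MACS2 at a q-value of at most 0.01 and, after leaving out blacklisted DNA, assigned HOMER annotations; an input control is not given in the sources used here. The deposited peak score is taken as −log10 of a p- or q-value from its values; it is not scaled to depth, and the depth is unknown.

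Here, log2 summed scores per gene, or the highest score per merged region (overlap of at least 1 bp), in all 8 RNAPII-pS5 samples of the experiment were centred on the median of features with a peak in all samples and fitted with limma 3.58.1 (R 4.3.3), with a trend. Features with a peak in 2 or more of the 4 ctrl_ctrl and ctrl_1hLPS samples were tested, also for the response after IL-4 and the interaction. Missing peaks were set to 1.44 (1.39 for RNAPII-pS2). Tested on simulated data with 11196 genes, this fit recovered 91% of changes of 2 log2 units and 28% of changes of 1 unit. The changes were planted only in genes with a peak in all 8 samples. The simulated spread was fixed at a value smaller than that between the real replicates, so these shares can be too high for the real lists. Recovery in the real lists, including genes with no peak in a group, was not tested. In those lists the median absolute log2 difference between replicates was 0.40 in the control pair and 0.39 in the LPS pair. Motifs were searched on both strands of RefSeq promoters and of the mm10 genome. The named genes are the 12 largest rises and 10 largest falls with a peak in all 4 samples, the 8 highest LPS-only genes, up to 5 called members per list (others were added after their values were seen), genes named by the study, 6 and 4 intergenic regions, and 5 interaction genes each way. Control-only genes, Mir genes other than Mir155 and the alternatives with equal numbers of peaks and with gene overlap were chosen after seeing the data. The comparison, members and 15 gene lists were chosen with earlier results of these data known. Some items that the rule names are not reported here. The other peak lists were not used here.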

Additional observations from a re-analysis of the deposited data

Results flagged for a closer look

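In 9 genes the RNAPII-pS5 change with LPS differed between cells with and without IL-4 pretreatment by the interaction term in limma (Benjamini-Hochberg adjusted p = 0.032 for each); none of the 9 calls held with the replicate number as a block or with a higher value for a missing peak. Given as the LPS change after IL-4 minus the LPS change without it, on the log2 scale, the positive differences were Mrpl44 4.81, Poln 4.77, Ech1 4.51 and Gramd1b 4.37. In all 4, peaks of that name were present in both control samples and absent in both LPS samples without IL-4. The highest peak named Mrpl44 lay in Serpine2, and that named Ech1 lay outside the gene, at −2141 bp from its start. For Gramd1b this rests on how peaks were named, since by overlap with the gene it had 46.6 and 29.1 without LPS and 38 and 28.1 with it, and was not called. After IL-4, Gramd1b had scores of 16.8 and 14.6 and then 23.4 and 22.7 with LPS, and Ech1 and Poln had peaks with LPS only.

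The negative differences were Sim1 −5.79, Usp39 −5.01, Colgalt2 −4.80, 4833439L19Rik −3.95 and Cep55 −3.66. Without IL-4 these 5 names had peaks in the LPS samples only. The highest peak named Sim1 lay in Ascc3, at −132340 bp from the start of Sim1, and that named 4833439L19Rik lay in Simc1. By overlap with its own gene 4833439L19Rik scored 5.69 and 5.03 with LPS, without IL-4. After IL-4, the names Sim1, Usp39 and Colgalt2 had peaks without LPS only, and the name 4833439L19Rik had 77.2 and 48.6 without LPS and 60.7 and 62.1 with it. Each of the 9 has at least 1 group with no peak, so the size of the difference depends on the value given to a missing peak.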

How the results depend on the processing

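The number of genes called was 3119 in the reported fit, 766 among genes with a peak in all 4 samples, 1250 with promoter peaks alone and 1967 with scores of at least 5, and 477 to 1608 without any single sample. Regions called numbered 9562, and 1144, 5980 and 2614 to 5073 under the same settings apart from promoters. RNAPII-pS2 genes went from 3309 to between 1099 and 1684 without a sample. Without a control sample, genes seen only in controls can no longer pass the filter on 2 samples, which lowers the count of lower genes by construction: 437 higher and 100 lower genes were called without the first control sample and 388 and 89 without the second, against 347 and 1101 and 353 and 1255 without the first and the second LPS sample. The interaction went from 180 genes to 0 with a higher value for a missing peak, 414 without centring, 1928 at an unadjusted p of at most 0.05, and 0 to 6 without a sample. LPS-only regions numbered 2502 (3035 to 4335 without a sample), control-only regions 5405 (6448 to 8831; 3318 with equal numbers of peaks) and shared regions 6942 (7475 to 8347; 3058 where a peak had to cover 50% of the region). The share with p65 at LPS-only, control-only and shared regions was 79.2%, 35.5% and 77.7% when 1 p65 sample sufficed and 69.8%, 12.7% and 59.1% with p65 scores of at least 5.

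No pairing by replicate number was seen: the correlation of deviations of samples with the same number lay between −0.03 and 0.02 over group pairs. Such correlations cannot exclude a pairing with a small effect or with an effect at few genes. With the replicate number as a block, 2919 RNAPII-pS5 genes, 9322 regions and 3202 RNAPII-pS2 genes were called, and 0 genes passed the interaction.

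Over all genes, calls turned to the opposite call for 96 genes with a 4 times higher value for a missing peak, 35 with promoter peaks alone, 22 by overlap with the gene, 12 with intergenic peaks included and 1 with the highest score. Among the named genes, directions turned for Ccl7 (−1.12), Cd14 (−1.51), Gbp5 (−1.21), Il1rn (−0.56) and Nlrp3 (−2.97) with promoter peaks alone, for Fcgr1 (0.32), Fli1 (0.094) and Irf1 (0.19) with the highest score in place of the sum, for Dusp2 (0.60), Fcgr1 (0.26) and Irf1 (0.57) with intergenic peaks included, and for Dusp2 (2.51) and Irf1 (0.42) by overlap with the gene. The cause was not tested, beyond the peaks that each setting keeps. At Ccl7 and Gbp5 the highest LPS peak covered the start of the gene and is listed outside the promoter class. The 10 named intergenic regions kept direction and call in all 140 combinations of region and alternative.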
